A study of Mus musculus with 6 samples.

Results

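Collagens II, IX, XI and XXVII build the fibrils of cartilage, and the 7 genes that encode their chains in the mouse are *Col2a1*, *Col9a1*, *Col9a2*, *Col9a3*, *Col11a1*, *Col11a2* and *Col27a1*. They were chosen by name, not by their level, as 7 of the 22032 gene rows of an RNA-seq table of mouse cartilage chondrocytes. All 7 were found and passed the filter on low values. The table holds 3 embryonic and 3 adult samples of cells sorted for BMPR1B, a bone morphogenetic protein receptor on the chondrocyte surface, and against ALP (alkaline phosphatase) and the blood and endothelial lineages. The adult cells came from 2 month old animals, male and of B6 background according to the methods, while the embryos' sex and strain and the number of animals in each sample are not given in the sources used here. The labels call the embryonic stage 16.5 weeks and the paper embryonic day 16.5 (E16.5), and the paper's stage is used. No label names a genotype, an engineered allele or a treatment for either stage. The design text calls the 3 samples of each stage biological replicates. Levels are given in TPM, the number of transcripts of a gene in every 1000000, a unit scaled by transcript length, so that the levels of different genes can be set side by side.

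Type II collagen is made of identical *Col2a1* chains and is the bulk protein of cartilage fibrils. Type XI collagen, assembled from the *Col11a1* and *Col11a2* chains and a further product of *Col2a1*, lies in the core of the fibril and limits its diameter. Type IX collagen, with a chain from each of *Col9a1*, *Col9a2* and *Col9a3*, does not form fibrils by itself but decorates their surface and links them to the surrounding matrix, and *Col27a1* encodes a fibril-forming collagen with a short helix that is found in developing cartilage. Mutations in these genes are known from chondrodysplasias, early osteoarthritis and, for several of them, Stickler syndrome with changes of the eye and the ear.

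In GRCm38 (GENCODE M21), *Col2a1* lies on chromosome 15 from 97975602 to 98004695 on the minus strand, and the other 6 genes lie on plus strands. *Col9a1* lies on chromosome 1 from 24177610 to 24252684, *Col9a2* on chromosome 4 from 121039385 to 121055322 and *Col9a3* on chromosome 2 from 180597790 to 180622189. *Col11a1* lies on chromosome 3 from 114030540 to 114220718, *Col11a2* on chromosome 17 from 34039437 to 34066685 and *Col27a1* on chromosome 4 from 63214004 to 63334991. They are long, finely divided genes, whose longest transcripts ran from 2924 bases in 32 exons (*Col9a2*) to 7667 bases in 67 exons (*Col11a1*). *Col9a3* overlaps an exon of *Tcfl5* on the opposite strand over a stretch of 234 bases, and no other member shares 50 or more bases at 95% identity with another gene. *Tcfl5* was listed at 4.81 to 16.2 TPM in embryonic and 14.8 to 26.1 TPM in adult chondrocytes, far below the 278 to 2159 TPM of *Col9a3*.

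Promoter windows of 250 bases before to 50 bases after a transcript start, from RefSeq on GRCm38.p6, were found for 5 of the 7 genes, with 2 windows for *Col9a1*. The downstream start of *Col9a1* gives a shorter chain without the large amino-terminal domain, a form known from the eye, and the deposited *Col9a1* value is for the gene, so both forms are in it. The stretches before the start of the gene with the largest stage difference (both starts) and of the pair of type XI genes are shown, on the plus strand, up to the start or to the first annotated exon. Capitals mark the letters of a GC box (GGGCGG or its complement CCGCCC) or of a TATA box (TATAAA or its complement), wherever they lie. These are the only searched motifs found in these 4 windows.
*Col9a1*, upstream start, chr1:24177360-24177609: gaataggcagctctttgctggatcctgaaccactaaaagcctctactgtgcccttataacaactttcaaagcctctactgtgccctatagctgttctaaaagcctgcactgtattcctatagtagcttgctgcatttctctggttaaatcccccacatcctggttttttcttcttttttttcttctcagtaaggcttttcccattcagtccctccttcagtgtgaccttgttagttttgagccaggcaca
*Col9a1*, downstream start, chr1:24194953-24195186: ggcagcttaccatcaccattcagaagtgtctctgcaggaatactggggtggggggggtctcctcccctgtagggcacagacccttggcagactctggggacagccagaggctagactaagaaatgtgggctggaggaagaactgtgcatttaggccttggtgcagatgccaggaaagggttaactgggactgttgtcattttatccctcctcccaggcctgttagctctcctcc
*Col11a1*, chr3:114030290-114030539: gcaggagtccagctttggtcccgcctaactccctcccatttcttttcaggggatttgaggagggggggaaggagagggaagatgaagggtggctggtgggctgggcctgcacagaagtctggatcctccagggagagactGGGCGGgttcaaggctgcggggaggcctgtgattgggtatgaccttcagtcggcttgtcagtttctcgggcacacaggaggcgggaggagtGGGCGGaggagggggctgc
*Col11a2*, chr17:34038888-34039137: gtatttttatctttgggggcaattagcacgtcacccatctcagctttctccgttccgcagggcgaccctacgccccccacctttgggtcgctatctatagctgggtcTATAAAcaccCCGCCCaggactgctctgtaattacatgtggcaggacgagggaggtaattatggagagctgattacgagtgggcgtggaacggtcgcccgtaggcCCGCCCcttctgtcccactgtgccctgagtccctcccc

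GC boxes, letters that SP-family factors can bind, were found, on either strand, in 35.7% of all 32851 RefSeq windows of this length. Both *Col9a1* windows held none, *Col11a1*, *Col11a2* and *Col27a1* held 2 each and *Col9a2* held 3. The letters TATAAA (or their complement) were found in *Col11a2* alone among the members, at position -143 from the start, and in 13.6% of all windows. Letters were matched anywhere in a window, so whether this match works as a TATA box was not tested. AACAAT (or ATTGTT), a core element that SOX proteins bind, was in none of the members' 6 windows and in 10.7% of all windows. The GC content of the windows was 47.3% at the upstream and 55.7% at the downstream start of *Col9a1*, and 59% to 62.3% in the other members.

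Each column of the table summed to 1000000 TPM, so the values carry no sequencing depth, and the precision of a level rests on the spread between 3 samples. Between 7314 and 8294 genes were listed at 0 in a sample, and the top 20 genes took up 10.7% to 11.1% of an embryonic and 14.6% to 17.7% of an adult sample. The 8 chondrocyte markers checked (*Sox9*, *Acan*, *Hapln1*, *Matn3*, *Snorc*, *Cnmd*, *Ucma* and *Chad*) were above 0 in all 6 samples and together at 4654 to 4788 TPM in embryonic and 7490 to 11112 TPM in adult chondrocytes. Without *Chad*, which made up most of the adult sum, the other 7 summed to 4540, 4672 and 4536 TPM and then 2823, 4556 and 3327 TPM, so the stages overlapped. Of the 8, *Sox9* and *Chad* were called higher in adult chondrocytes, *Cnmd*, *Matn3* and *Hapln1* lower and 3 not, with a median log2 fold change of -0.35 in the test given next. *Bmpr1b*, which the sort selected for, was at 16.4 to 20.3 TPM in embryonic chondrocytes and at 4.51, 18.5 and 13.4 TPM in adult chondrocytes. Adult replicate 1, lowest for *Bmpr1b*, also stood apart for *Col2a1* and *Col1a1*, whose values are given with and without it.

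Stage differences were tested with limma over 13125 genes and are given as log2 fold changes, adult minus embryonic, on the log2(TPM + 1) scale. All 7 genes fell from the embryonic to the adult samples at a Benjamini-Hochberg adjusted p under 0.05, and for all 7 the lowest embryonic sample was above the highest adult sample. Over all genes tested, 21.4% were called lower in adult chondrocytes (45.3% in either direction), 25.9% had adult samples wholly below the embryonic ones, and 56.5% had no overlap in either direction. All 7 also passed an adjusted p under 0.01, as did 14.2% of all genes tested in this direction. The median log2 fold change of the 7 genes was -2.66, beside 0.16 over all genes tested. In bulk samples, fewer cells that express a gene and less of its RNA in each cell cannot be told apart.

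**Figure D1:**
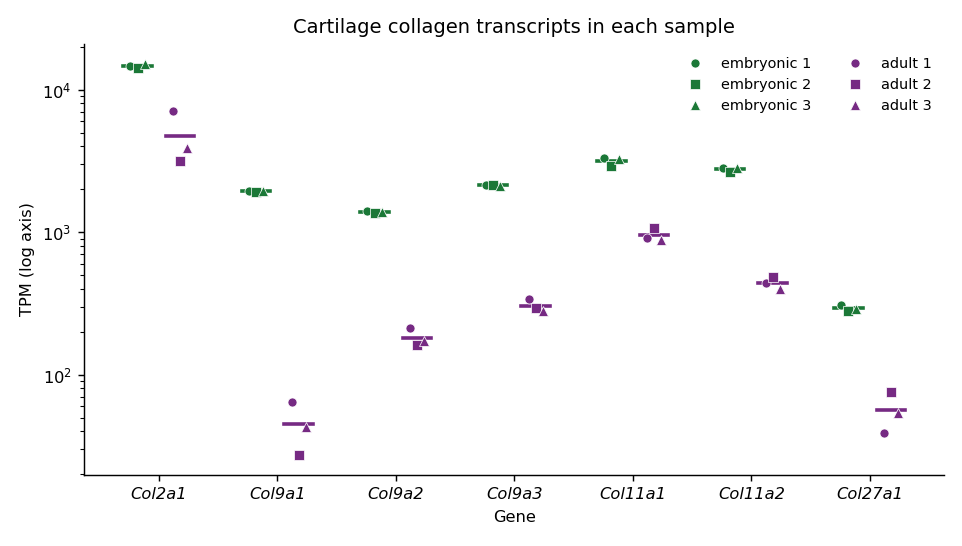
TPM of each of the 7 genes in each sample, on a log axis. Green points are the embryonic and purple points the adult samples, the marker shape is the replicate, and the bar is the mean of 3 samples. For every gene the 3 embryonic points lie close together and above the 3 adult points, with the widest gap at *Col9a1* (1931 against 44.8 TPM).

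*Col2a1* was at 14663, 14154 and 15251 TPM in embryonic replicates 1, 2 and 3 and at 7084, 3166 and 3869 TPM in adult replicates 1, 2 and 3. It was the gene with the highest level of the whole table in every embryonic sample, and ranked 7, 23 and 16 in adult chondrocytes. The embryonic samples agreed closely, whereas adult replicate 1 was well above the other adult samples. On the log2 scale the level fell from 13.84 ± 0.05 to 12.11 ± 0.60 (SD, n = 3), a log2 fold change of -1.73 (standard error 0.269, 95% interval -2.34 to -1.12, limma adjusted p = 0.00107), which was -2.07 without adult replicate 1. The mean TPM was 3.12 times as high in embryonic chondrocytes, and 9.47% of the tested genes had a lower fold change. Of the 7 genes, *Col2a1* thus kept the highest level at both stages.

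*Col9a1*, whose chain carries the large domain that projects from the fibril surface, was at 1933, 1913 and 1946 TPM in embryonic chondrocytes. Its adult levels were 64.3, 27.2 and 42.8 TPM, so that the highest adult sample remained far under the lowest embryonic one. Its log2 level went from 10.92 ± 0.01 to 5.43 ± 0.60 (SD, n = 3), a log2 fold change of -5.48 (standard error 0.258, 95% interval -6.07 to -4.90, limma adjusted p = 1.6e-06). Its mean TPM was 43.1 times as high in embryonic chondrocytes, and 0.404% of the tested genes, 53 in number, had a lower fold change. By level it ranked between 49 and 58 among all genes in embryonic and between 3007 and 5812 in adult chondrocytes.

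The partner chains of type IX fell less. *Col9a2* was at 1401, 1357 and 1383 TPM in embryonic and at 211, 161 and 173 TPM in adult chondrocytes, for a log2 fold change of -2.93 (standard error 0.13, 95% interval -3.22 to -2.64, limma adjusted p = 1.1e-06). *Col9a3* was at 2159, 2143 and 2094 TPM in embryonic and at 338, 293 and 278 TPM in adult chondrocytes, for a log2 fold change of -2.82 (standard error 0.118, 95% interval -3.08 to -2.55, limma adjusted p = 9.8e-07). The mean TPM of these genes was 7.61 and 7.04 times as high in embryonic chondrocytes, and their intervals overlapped each other and lay wholly above that of *Col9a1*.

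*Col11a1*, whose product can also join type V chains outside cartilage, was at 3301, 2903 and 3281 TPM in embryonic and at 911, 1073 and 879 TPM in adult chondrocytes. Its log2 fold change was -1.73 (standard error 0.129, 95% interval -2.02 to -1.44, limma adjusted p = 2.0e-05), and its mean TPM was 3.31 times as high in embryonic chondrocytes. *Col11a2*, the more cartilage-restricted chain of type XI, was at 2842, 2663 and 2821 TPM in embryonic and at 437, 483 and 401 TPM in adult chondrocytes. Its log2 fold change was -2.66 (standard error 0.118, 95% interval -2.92 to -2.39, limma adjusted p = 1.1e-06), a ratio of mean TPM of 6.3. The type XI genes were thus nearer each other in embryonic than in adult chondrocytes. *Col11a1* was the higher in every sample of both stages, by 1.14 times in the embryonic and 2.17 times in the adult means.

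*Col27a1* was the lowest of the 7 genes in embryonic chondrocytes, at 310, 279 and 288 TPM. Its adult levels of 38.7, 75.8 and 53.9 TPM spread more widely, and adult replicate 1, the highest adult sample for *Col2a1*, was here the lowest. The log2 level fell from 8.20 ± 0.08 to 5.78 ± 0.48 (SD, n = 3), a log2 fold change of -2.41 (standard error 0.222, 95% interval -2.92 to -1.91, limma adjusted p = 6.4e-05), and the mean TPM was 5.21 times as high in embryonic chondrocytes. The microRNA gene *Mir455* lies within *Col27a1* without overlapping an exon and was not measured here.

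The order of the levels changed little besides *Col9a1*. In the embryonic samples it ran *Col2a1*, *Col11a1*, *Col11a2*, *Col9a3*, *Col9a1*, *Col9a2* and *Col27a1* from high to low, and the ranges of no 2 neighbours overlapped. In the adult samples it ran *Col2a1*, *Col11a1*, *Col11a2*, *Col9a3*, *Col9a2* and then *Col27a1* and *Col9a1*, whose ranges overlapped, with *Col27a1* higher in 2 of 3 samples. The gap between *Col2a1* and the next gene, *Col11a1*, was 4.65 times in embryonic and 4.93 times in the adult means.

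Summed, the 7 genes made up 2.66%, 2.54% and 2.71% of the transcripts of the embryonic samples and 0.908%, 0.528% and 0.57% of those of the adult samples. The mean share was 2.64% ± 0.0853 against 0.669% ± 0.209 (SD, n = 3). This gave an exact two-sided permutation p of 0.1, the smallest that 3 samples against 3 can give, with adult lower in 3 of 3 samples. Every exact test below has the same lower limit, so that none of them could reach 0.05.

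The make-up of this total was asked within each sample, since type II, IX and XI chains meet in the same fibril. *Col2a1* made up 55.1%, 55.7% and 56.4% of the TPM of the 7 genes in embryonic chondrocytes and 78%, 60% and 67.9% in adult chondrocytes (exact permutation p = 0.1, adjusted 0.133 over 8 values). All adult samples were above all embryonic ones, by 12.9 percentage points in the mean, of which 8.23 remained without adult replicate 1 and which became 17.2 without adult replicate 2. The summed type IX genes went from 5493, 5413 and 5422 TPM to 614, 481 and 493 TPM, 10.3 times lower in the mean, and from 20% to 21.3% of the 7 genes to 6.75%, 9.1% and 8.66% (exact permutation p = 0.1, adjusted 0.133). The *Col11a1* and *Col11a2* sum was lower in adults as well, at 6143, 5565 and 6102 TPM and then 1348, 1556 and 1280 TPM, yet its share overlapped between the stages, at 21.9% to 23.1% and at 14.8%, 29.5% and 22.5% (exact permutation p = 0.8). *Col27a1* made up 1.07% to 1.16% of the 7 genes in embryonic and 0.426%, 1.44% and 0.947% in adult chondrocytes, which also overlapped (exact permutation p = 0.7). The differences of these last shares, -0.245 and -0.173 percentage points, turned to 3.47 and 0.0822 without adult replicate 1.

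Ratios to *Col2a1* within a sample resolved this gene by gene. For every *Col2a1* transcript there was 0.132, 0.135 and 0.128 of a *Col9a1* transcript in embryonic chondrocytes and 0.00907, 0.0086 and 0.0111 in adult chondrocytes, a difference of -3.79 in the log2 ratio (exact permutation p = 0.1, adjusted 0.15 over 6 ratios). The log2 ratio differed by -1.21 for *Col9a2*, -1.09 for *Col9a3* and -0.93 for *Col11a2*, each lower in every adult sample and each with the same exact p. Without adult replicate 1 these were -0.98, -0.83 and -0.59. The ratios were not run again under quantile normalization. There the log2 fold change of *Col2a1* was -2.29, beside -2.71 for *Col9a2*, -2.66 for *Col9a3*, -2.56 for *Col11a2* and -1.65 for *Col11a1*. *Col9a2*, *Col9a3* and *Col11a2* thus lay nearer to *Col2a1* than without it, and *Col11a1* fell less than *Col2a1*. The ratio of *Col11a1* was 0.225, 0.205 and 0.215 in embryonic and 0.129, 0.339 and 0.227 in adult chondrocytes, a range that enclosed the embryonic one (exact permutation p = 1.0). That of *Col27a1* overlapped between the stages too, with a log2 difference of -0.70 (exact permutation p = 0.4) that shrank to -0.12 without adult replicate 1 and grew to -1.19 when adult replicate 2 was left out instead.

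Chains of the same molecule can be compared without *Col2a1*, whose adult levels varied most in TPM. The *Col9a1* to *Col9a3* ratio was 0.895, 0.893 and 0.929 in embryonic chondrocytes and 0.19, 0.093 and 0.154 in adult chondrocytes, a log2 difference of -2.70. The *Col9a2* to *Col9a3* ratio was 0.649, 0.633 and 0.661 against 0.623, 0.548 and 0.623, a log2 difference of -0.12 that was -0.06 without adult replicate 2. The *Col11a1* to *Col11a2* ratio was 1.16, 1.09 and 1.16 against 2.08, 2.22 and 2.19, a log2 difference of 0.93 that lay between 0.9 and 0.96 with any sample left out. For all 3 pairs the stages did not overlap and the exact permutation p was 0.1 (adjusted 0.1 over 3). Within type IX, the proportion of *Col9a2* to *Col9a3* thus differed far less between the stages than that of *Col9a1* to *Col9a3*. Within type XI *Col11a1* exceeded *Col11a2* by more in adult chondrocytes. These ratios were not run again with GC and length correction. There the log2 fold changes were -1.55 for *Col11a1* and -2.10 for *Col11a2*, closer together than without it. Those of *Col9a2* and *Col9a3* were -2.66 and -2.87, with the larger fall now in *Col9a3*.

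**Figure D2:**
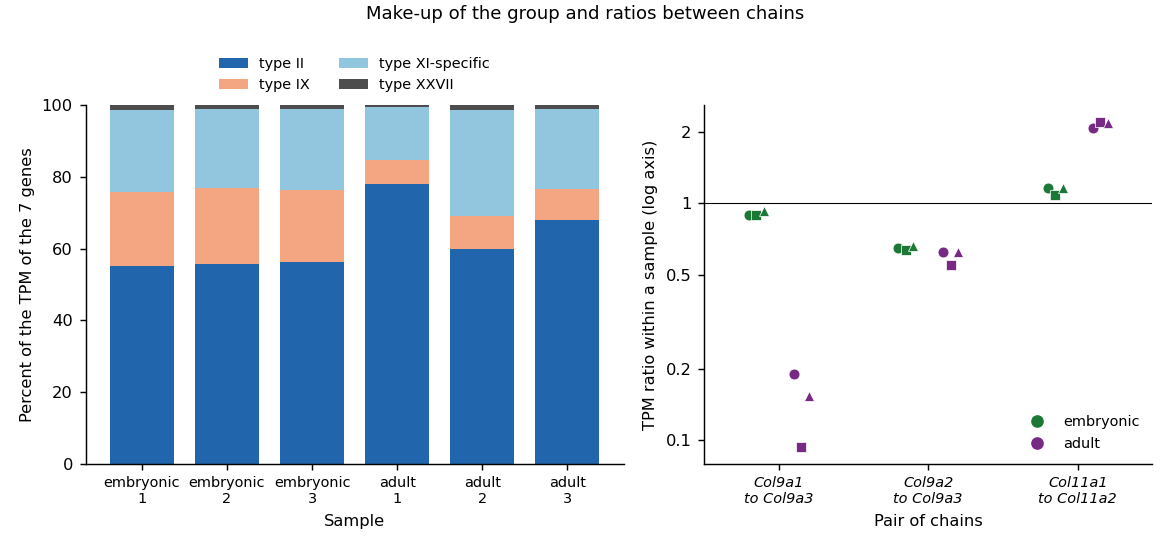
Left, percent of the TPM of the 7 genes held by type II (*Col2a1*), type IX (the 3 *Col9* genes), the type XI-specific chains (*Col11a1* and *Col11a2*) and type XXVII (*Col27a1*) in each sample, where the type IX part is 20% or more in the embryonic and 6.75% to 9.1% in the adult samples. Right, TPM ratios between chains within each sample on a log axis, with the line at 1 for equal levels, where *Col9a1* to *Col9a3* is below 0.2 and *Col11a1* to *Col11a2* above 2 in all 3 adult samples.

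The genes whose profile over the 6 samples lay nearest to each member were found by the root mean square difference of the centred log2 values, which is a description of 6 samples in 2 groups. *Col9a2* and *Col9a3* were each other's nearest gene of all those tested, at 0.085 on the log2 scale, followed for both by *Efhd2* and *Sulf2*. *Col11a2* came 8th nearest to *Col9a3* (0.134), while its own nearest genes were *Ephb3*, *Gxylt2* and *Cdh6* (0.089, 0.091 and 0.092). *Col9a1* was nearest to *Filip1l* (0.258), *Sox11* (0.278) and *Cacna1g* (0.394), and no other member came closer to it than 1.299. *Col11a1* was nearest to *Atp8b2*, *Cnn3* and *Zswim4* (0.064, 0.077 and 0.078), *Col27a1* to *Rassf2*, *Spry4* and *Pmepa1* (0.105, 0.116 and 0.128), and *Col2a1* to *Anxa6*, *Bard1* and *Armcx2* (0.119, 0.129 and 0.133). The nearest member to *Col2a1* was *Col11a1*, at 0.407. Several of the nearest genes were near the floor in adult chondrocytes, where the pseudocount of 1 affects the profile. *Cdh6* was listed at 0 in every adult sample. *Filip1l*, *Sox11*, *Cacna1g*, *Bard1* and *Rassf2* reached at most 1.92, 1.22, 1.41, 1.55 and 1.33 TPM there. Over the alternatives the log2 fold change of *Cdh6* ranged from -5.68 to -2.29, beside -2.80 to -2.10 for *Col11a2*.

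Among the other collagen genes, 37 in number, the filter left 33, of which 23 fell, 2 rose and 8 did not pass the threshold, with a median log2 fold change of -1.87. The 7 other fibril-forming genes (*Col1a1*, *Col1a2*, *Col3a1*, *Col5a1*, *Col5a2*, *Col5a3* and *Col24a1*), a class set apart after its values were seen, all fell, with a median of -2.51. *Col1a1*, the main collagen of bone and tendon, was at 5555, 4862 and 5971 TPM in embryonic and at 170, 603 and 637 TPM in adult chondrocytes (log2 fold change -3.75, limma adjusted p = 2.2e-04, and -3.13 without adult replicate 1). *Col3a1*, a collagen of soft connective tissue, was at 4518, 4651 and 5122 TPM and then at 148, 312 and 395 TPM (log2 fold change -4.17, limma adjusted p = 1.9e-05). The other collagens that associate with fibrils as type IX does were likewise set apart after their values were seen. Of these, 5 were tested and 4 fell, among them *Col14a1*, at 209 to 230 TPM in embryonic and 2.83, 6.85 and 16.1 TPM in adult chondrocytes. *Col6a6* fell from 65.9 to 89.0 TPM to 0, 0.0723 and 3.12 TPM, a log2 fold change of -5.53 beside -5.48 for *Col9a1* (-5.17 and -5.78 without adult replicate 1).

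The chains *Col6a1*, *Col6a2* and *Col6a3* of type VI collagen, which forms the microfibrils around each chondrocyte, were not called lower. *Col6a1* (1508 to 1622 TPM in embryonic, 1166 to 1689 TPM in adult chondrocytes) and *Col6a2* (1632 to 1682 TPM, then 1193 to 1732 TPM) overlapped between the stages, at log2 fold changes of -0.19 and -0.17 (limma adjusted p = 0.328 and 0.383) whose sign turned under 1 of the scalings tried. Without adult replicate 2, *Col6a1* was called lower, at -0.34 (limma adjusted p = 0.0446). *Col6a3* rose by 0.63 on the log2 scale (limma adjusted p = 0.00958). *Col10a1*, the collagen of hypertrophic chondrocytes, rose from 14.5, 72.4 and 11.4 TPM to 814, 949 and 1096 TPM (log2 fold change 5.29, limma adjusted p = 1.4e-04). As a share of the TPM of all 44 collagen genes, the 7 cartilage genes were at 53.5%, 54.7% and 52.8% in embryonic and at 55%, 36.7% and 41.5% in adult chondrocytes, which overlapped. *Col6a1*, *Col6a2* and *Col6a3* together made up 8.53% to 9.11% of it and then 27.8% to 37.5%.

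**Figure D3:**
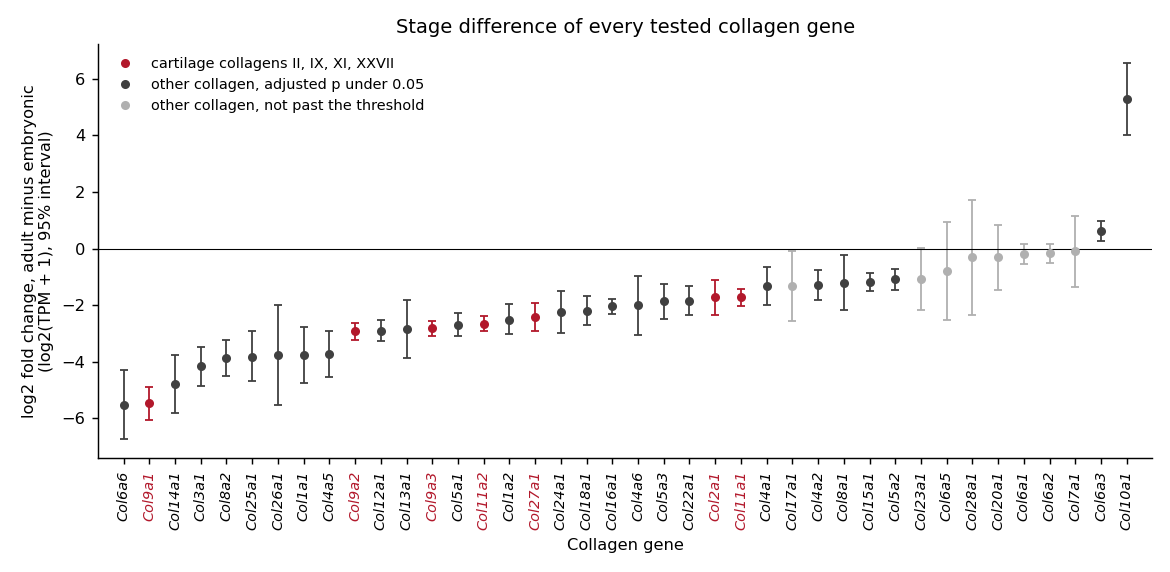
Log2 fold change, adult minus embryonic, with its 95% interval from limma for every tested collagen gene, ordered by size. Red points are the 7 cartilage collagens, black points other collagens past the threshold and grey points those not past it, and the red points lie between -5.48 (*Col9a1*) and -1.73 (*Col11a1* and *Col2a1*) among other falling collagens.

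The 12 regulators of cartilage collagen genes that were examined held 4 lower, 3 higher and 5 not past the threshold, with a median of -0.44. Over all genes tested 21.4% were lower and 23.9% higher, which is the background for this and the following counts. SOX9 is the main activator of *Col2a1*, *Col9a1* and *Col11a2* in chondrocytes and acts with SOX5 and SOX6. *Sox9* rose from 452, 392 and 465 TPM to 589, 901 and 656 TPM (log2 fold change 0.69, limma adjusted p = 0.01), with every adult above every embryonic sample. *Sox5* rose from 125, 146 and 125 TPM to 209, 226 and 175 TPM (0.62, limma adjusted p = 0.00773). *Sox6* fell from 53.2, 51.5 and 42.1 TPM to 28.9, 26.8 and 20.4 TPM (log2 fold change -0.93, limma adjusted p = 0.00687). Each of these calls held, in the same direction, in all 16 alternatives. Among the rest, named after their values were seen, the SOX9 co-activator genes *Arid5a* and *Arid5b* fell by 1.52 and 1.56 on the log2 scale, the repressor gene *Snai2* fell by 0.92, and *Trps1*, which encodes a repressor active in cartilage, rose by 0.68.

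Genes of procollagen folding in the endoplasmic reticulum held 15 of 24 lower, 4 higher and a median of -0.63. Over 16 alternatives 12 to 16 of them were lower, with 12 in 8 of the 16. *Serpinh1*, encoding the collagen chaperone HSP47, was at 2216, 2221 and 2468 TPM in embryonic and at 1328, 821 and 893 TPM in adult chondrocytes (log2 fold change -1.21, limma adjusted p = 8.9e-04). *P4hb*, the shared subunit of the prolyl hydroxylases that stabilise the helix, fell by 1.16 on the log2 scale (limma adjusted p = 3.4e-04), and the general chaperone gene *Hspa5* had a log2 fold change of 0.46 and missed the threshold (limma adjusted p = 0.07). The prolyl hydroxylase genes, named after their values were seen, took different courses. *P4ha3* went from 177 to 200 TPM to 0.7, 4.47 and 1.69 TPM, *P4ha1* was at 232 to 277 TPM and then 231 to 275 TPM, and *P3h2* rose from 85.1 to 99.6 TPM to 408, 854 and 588 TPM. *Plod2*, also named after its values were seen, is a lysyl hydroxylase gene for the telopeptides from which cross-links form. It rose by 0.99 on the log2 scale.

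Outside the cell, procollagen is trimmed and cross-linked, and 8 of the 15 tested genes of these steps fell and 3 rose (median -0.53). Over 16 alternatives 6 to 8 of them fell and 2 to 4 rose. *Loxl4*, a lysyl oxidase family gene, rose from 57.9, 63.1 and 45.5 TPM to 482, 624 and 576 TPM (log2 fold change 3.32, limma adjusted p = 1.9e-06). *Pcolce*, which enhances removal of the carboxy-terminal propeptide, fell by 1.13 on the log2 scale (limma adjusted p = 1.2e-04). *Lox* rose by 0.45 (limma adjusted p = 0.0466), a call kept in 6 of 16 alternatives, where its adjusted p reached 0.16. *Adamts3*, singled out after its values were seen, encodes an enzyme that removes the amino-terminal propeptide of type II procollagen, and was at 56.7, 51.7 and 47.1 TPM in embryonic chondrocytes and listed at 0, 1.09 and 0 TPM in the adult ones. Of the 7 collagen receptor genes 3 fell and 2 rose (median -0.32). The number that fell was 2 in 6 of 16 alternatives, and the median was 0.06 with GC and length correction. *Itgb1* fell by 0.52 on the log2 scale, while *Itga10*, the integrin chain most typical of chondrocytes, rose by 1.15. *Ddr2*, a kinase receptor for fibrillar collagen, rose by 1.46 on that scale.

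Partners of the fibril in the matrix split into strong changes of both signs, with 8 of 20 lower, 7 higher and a median of -0.08. *Chad*, which encodes a protein that binds type II collagen, rose from 115 to 139 TPM to 4667, 6557 and 4803 TPM, *Dcn*, a fibril-binding proteoglycan, from 217, 241 and 326 TPM to 6348, 5026 and 5549 TPM, and *Cilp* from 29.1 to 40.0 TPM to 4091, 5526 and 3779 TPM (log2 fold changes 5.40, 4.44 and 7.01). *Acan*, the main proteoglycan gene, was singled out here after its values were seen. It overlapped between the stages at a log2 fold change of 0.61 (limma adjusted p = 0.0717, and past the threshold in 4 of 16 alternatives). The matrilins, adaptors that can bind type IX collagen and were named after their values were seen, went down: *Matn3* was at 181 to 234 TPM and then at 1.85, 3.65 and 1.11 TPM, and *Matn1* at 752, 891 and 814 TPM and then listed at 0 in all 3 adult samples. Among 11 tested genes of collagen turnover 7 rose and 2 fell (median 1.14). *Mmp3*, encoding stromelysin, rose from 7.58 to 13.2 TPM to 6516, 4182 and 7697 TPM, and the protease inhibitor genes *Timp3* and *Timp1* rose by 3.82 and 1.14 on the log2 scale.

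**Figure D4:**
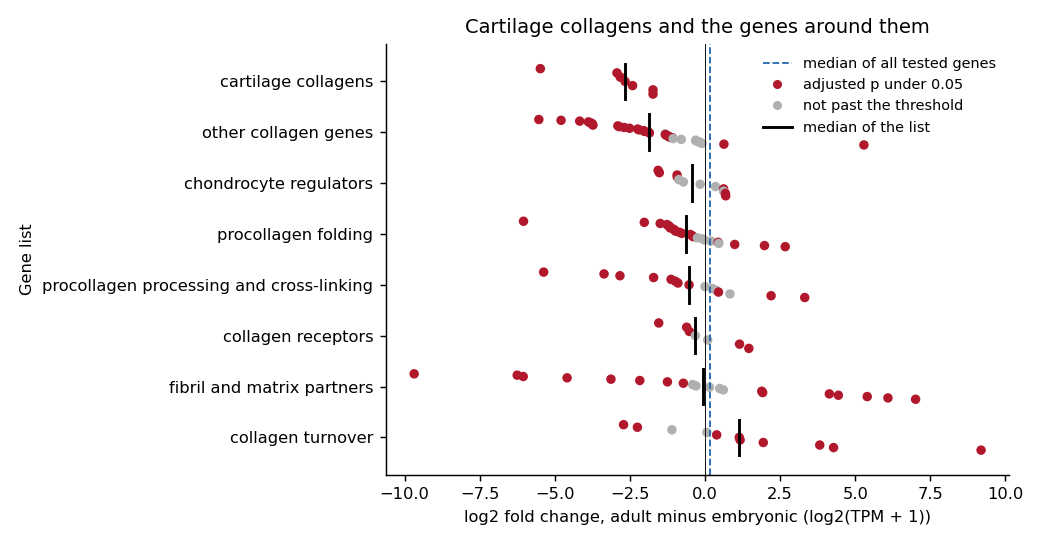
Log2 fold change, adult minus embryonic, of each tested gene in 8 groups. Red points passed the threshold and grey points did not, the black bar is the median of the group and the dashed line the median of all genes tested (0.16), and the cartilage collagens, at a median of -2.66, stand left of every other group's median.

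Markers of other cells moved between the stages as well. Those of hypertrophic chondrocytes summed to 27.8 to 84.2 TPM in embryonic and 957 to 1322 TPM in adult chondrocytes, with *Col10a1* and *Mmp13* higher, *Panx3* lower and *Ihh* listed at 0 in all adult samples. Osteoblast markers summed to 15.7 to 51.8 TPM and then 254 to 448 TPM, with 3 of 6 higher (*Ibsp*, *Bglap* and *Bglap2*, the last pair listed at 0 in all embryonic samples and the call of *Bglap2* kept in 9 of 16 alternatives), 1 lower (*Dmp1*) and 2 not past the threshold. *Alpl*, the gene of the sorted-out ALP, rose from 14.4 to 17.9 TPM to 32.7 to 38.6 TPM. Tendon markers summed to 368 to 602 TPM and then 293 to 410 TPM, of which *Scx* and *Tnmd* fell, to 0 to 4.59 TPM and 0 to 2.11 TPM in adults, and *Thbs4* rose, a call kept in 7 of 16 alternatives. Sums for the other cell types were low in most samples, at 16.8 to 24.7 and then 0.87 to 14.8 TPM for muscle, 10.9 to 33.3 and then 3.79 to 13 TPM for endothelial cells, 5.34 to 13.7 and then 19 to 66.7 TPM for leukocytes, and 7.77 to 257 and then 11.9 to 43.6 TPM for erythroid cells. Of these, *Tek* fell and *Cd68* rose. Their part in the stage differences of the 7 collagen genes was not tested.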

How the data were processed

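RNA-seq was measured in 6 samples of sorted mouse cartilage chondrocytes, 3 embryonic and 3 adult. Per the methods, RNA was made into cDNA with random and poly(T) primers and sequenced as single-end 50 base reads, the authors mapped them to GRCm38 and estimated levels with RSEM (version not given in the sources used here), and the deposited log2 values are log2(TPM + 1) per gene. The labels name a different library kit from the methods, and the methods name RefSeq while the rows are Ensembl identifiers. TPM keeps no depth, so no count test was used. The authors' EBSeq comparison was not used here.

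Symbols (21902 of 22032 rows) came from a separate list of mouse gene names that also holds older symbols, and positions came from GENCODE M21. Stage differences were fitted with limma 3.58.1 in R 4.3.3 (eBayes with trend) on log2(TPM + 1), a pseudocount of 1, for the 13125 genes whose mean reached 1 TPM, with a Benjamini-Hochberg adjusted p under 0.05 over all of them as the threshold. Totals and ratios used exact two-sided permutation tests. Similarity was searched with BLAST+ 2.17.0, and tables were made in Python 3.11.15.

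The 7 genes, the gene lists and the tests were chosen with earlier results of these data known. Of 138 listed genes, *Mia3* was not found. The values of 1 listed marker are not reported here. Named besides the members are the 4 other collagens with the highest mean in each stage and the 2 with the largest change each way among those called, the 3 highest of each partner list, *Sox5*, *Sox6* and *Sox9*, and the 3 nearest profiles of each member. The listed cell type markers and the genes that overlap a member are named too. Others are said to be named after their values were seen. As alternatives, the pseudocount was set to 0.1, the filter was dropped or raised to 5 TPM, values were quantile normalized, scaled by median of ratios, rescaled leaving out the top 20 genes or corrected for GC content and length, eBayes was run with no trend or in robust form, the replicate number entered as a block, the threshold was 0.01, and each sample was left out in turn.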

Additional observations from a re-analysis of the deposited data

How the results depend on the processing

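All 7 cartilage collagen genes fell past the threshold under every alternative, also at an adjusted p under 0.01. Their log2 fold changes ranged from -2.29 to -1.34 for *Col2a1*, -5.78 to -5.18 for *Col9a1* and -2.80 to -2.10 for *Col11a2*, and less widely for the others. Of 377 alternative values for 34 results, 371 kept their direction and their side of the threshold, stayed within 1.5 times for a count, or, for a value with no test, moved by less than the spread between samples. This overstates the stability. An exact p could not go under 0.1, so for totals and ratios the side of the threshold was fixed in advance. These were varied mainly by leaving out samples, and not by quantile normalization or GC and length correction. Counts of a list pooled both directions. The filter, trend, robust and block alternatives left a fold change as it was. Sizes could still shift, as for the log2 ratio of *Col27a1* to *Col2a1*, from -0.70 to -0.12 without adult replicate 1. The count of all genes called, 5949, was 3718 at an adjusted p under 0.01 and 4603 to 5550 with 1 sample left out, where fewer samples were fitted. The median of all genes, 0.16, was 0.03 under median-of-ratios scaling. With 1 sample left out, the stage difference in the type XI-specific share of the 7 genes ranged from -3.85 to 3.47 percentage points (0.0425 without embryonic replicate 1), that of *Col27a1* from -0.424 to 0.0822, and the log2 ratio of *Col11a1* to *Col2a1* from -0.33 to 0.37 (0.03 without embryonic replicate 1), so these have no stable sign. With the replicate number as a block, 5430 genes and all 7 members were called. Deviations of same-numbered samples correlated at -0.009, -0.017 and -0.022, and those of differently numbered samples at -0.002 to 0.016. No pairing by number was seen, but this cannot exclude a shared batch or preparation. Depth is not carried by TPM. The paper refers to read totals in its supplement, which were not used here, so what depth limits was not examined.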
